A study of Homo sapiens with 6 samples.

Results

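The mitochondrial genome was examined in ChIRP-seq peak lists of DINO, a p53-pathway long noncoding RNA whose level rises after DNA damage. Every peak on chrM of hg19 was taken, and it was placed by position over the 37 mitochondrial genes and the control region. This gave 36 peaks of the 314065 in all 4 lists. They numbered 9 of 105683 in the untreated even list and 13 of 34712 in the untreated odd list. After RNase they numbered 7 of 116185 in the even list and 7 of 57485 in the odd list.

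ChIRP captures an RNA with complementary biotinylated oligonucleotides and sequences the DNA crosslinked to it. All groups were the same cells, U2OS, an established human osteosarcoma line with wild-type p53, given doxorubicin, which damages DNA, at 0.2 µg/mL for 24 h and then crosslinked with glutaraldehyde. The groups were an even and an odd probe set, each with and without RNase treatment of the chromatin. The RNase arm shows which DNA comes down in the absence of intact RNA. Each group was 1 library, so there was no replicate spread and no test between libraries, and each difference below is between these libraries. Of the 6 samples, the 2 inputs were not analysed here, and all 6 were of doxorubicin-treated cells. Read numbers were not known for any list.

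The mitochondrial genome is a small circle of DNA present in many copies in each cell. It encodes the RNAs of the mitochondrial ribosome, a set of tRNAs and core subunits of the respiratory chain and ATP synthase. Both strands are transcribed from promoters in the control region into long RNAs, which are cut mostly at the tRNAs, and the control region also holds the start of heavy-strand replication and the displacement loop, where a short extra strand is paired with the duplex.

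The last peak of each list ended at the same position, the end of the chrM sequence of hg19, which is 2 bp longer than the reference mitochondrial sequence now in use. The gene table used here (assembly GRCh38.p14) refers to the shorter sequence. The sequences are offset by a few bp, so a covered length within a gene can be wrong by that much and gene positions are not printed. Moving all genes by 1 or 2 bp changed no count of covered genes. All coordinates below are of peaks, 1-based, on the chrM sequence of hg19. Genes are given by peak position alone, since a peak has no strand.

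Peaks covered 3449 bp (20.8%) of the mitochondrial genome in the untreated even list and 4801 bp (29.0%) in the untreated odd list, against 2107 bp (12.7%) and 2129 bp (12.8%) after RNase. Joined over the 4 lists along the linear sequence, the peaks formed 13 loci that covered 5638 bp (34.0%). The first and the last locus adjoin on the circle, in the control region, but are counted apart here and below. Of these loci, 5 had peaks in all 4 lists, 8 had a peak in at least 1 RNase-treated list, and 5 had peaks only in untreated lists. The locus at 14268 to 15261 had peaks in all 4 lists, but no base of it was covered by all of them. Its even and odd RNase-treated peaks did not overlap. No locus had peaks only after RNase. Of the 37 genes, 10 were touched by untreated even peaks, 12 by untreated odd peaks and 4 by the peaks of each RNase-treated list, and 23 were touched in no list.

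**Figure D1:**
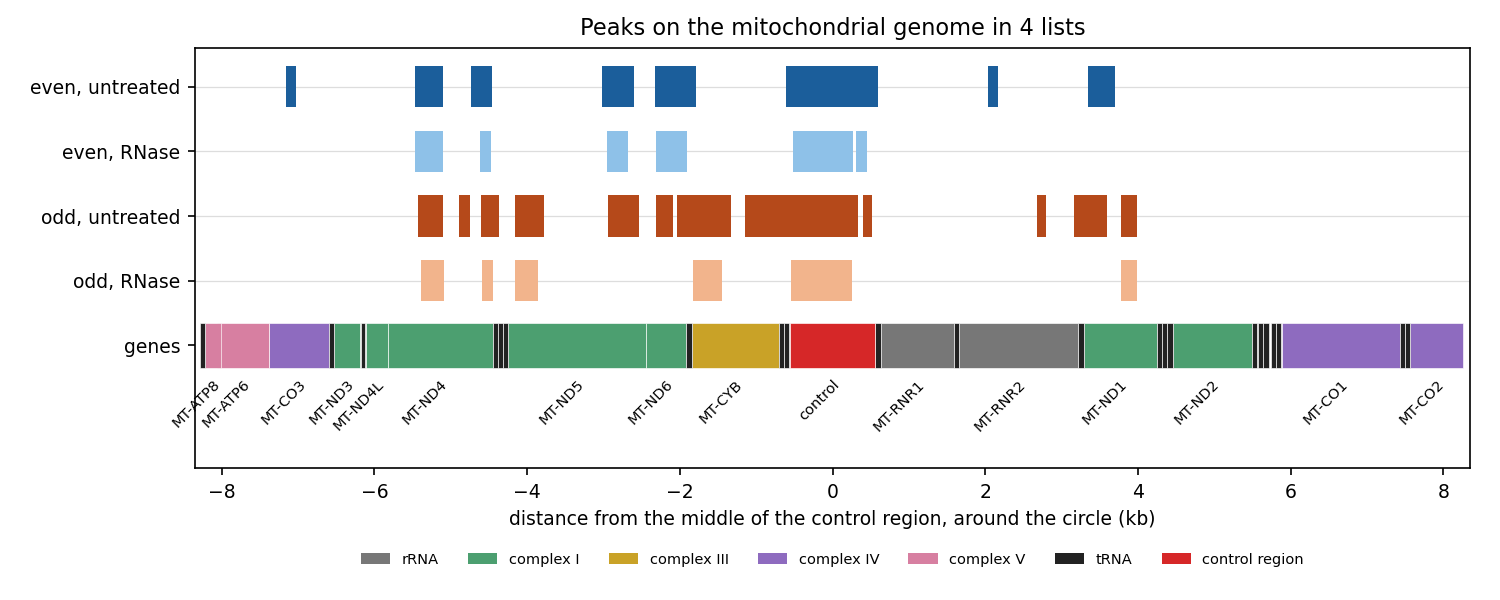
Peaks of the 4 lists (coloured bars) on the mitochondrial circle, opened opposite the control region. The horizontal axis is the distance from the middle of the control region in kb, and the lowest track shows the genes by group. Peaks of all 4 lists meet at the control region and at 2 places in MT-ND4, and a stretch of 5426 bp that holds MT-ND2 and MT-CO1 has none.

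In each RNase-treated list the control region was covered more completely than any gene. Peaks covered all of its 1124 bp in the untreated even list and 1014 bp (90.2%) in the untreated odd list. After RNase they covered 919 bp (81.8%) in the even list and 800 bp (71.2%) in the odd list. The linear sequence begins and ends within this region, and all 4 lists had a peak at its first and a peak at its last position. These positions are neighbours on the circle, so coverage that runs across them is counted as separate peaks and loci.

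On the side of the control region next to MT-TP, all 4 lists shared the last 502 bp of the sequence, from 16070. Each list had a peak that ran to this end. It began at 15978 in the untreated even list (fold enrichment 3.37) and at 16070 in the RNase-treated even list (fold 2.08). It began at 15438 in the untreated odd list (fold 8.77) and at 16043 in the RNase-treated odd list (fold 3.92). Fold enrichment is the authors' deposited value at the summit, the highest point of a peak, over the background that the caller modelled for its own list, and it describes a peak within that list. The summits of the 4 peaks lay at 16310, 16304, 16310 and 16309 in the order even untreated, odd untreated, even RNase and odd RNase, so both probe sets and both RNase states had their highest point within 6 bp. The odd peaks here had the highest −log10 p-value on chrM in their lists, 122 without and 112 with RNase.

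On the other side, next to MT-TF, the first 271 bp were shared by all 4 lists. The untreated even list had 1 long peak from 1 to 616 (fold 2.74), which ran into MT-TF, the tRNA gene for phenylalanine. Its summit lay at 490, outside the shared 271 bp. The RNase-treated even list had peaks at 1 to 280 (fold 2.53, summit at 159) and 325 to 461 (fold 1.81, summit at 425). The odd peak at 1 to 346 (fold 6.61) had its RNase-treated counterpart at 1 to 271 (fold 3.20), with summits at 163 and 160. A second odd peak at 413 to 532 (fold 2.18) had no counterpart after RNase, and its −log10 p-value of 5.94 was the lowest on chrM in its list. Joined across the ends of the sequence, the peaks that reach these ends spanned 1210 bp (even) and 1480 bp (odd) without RNase. With RNase they spanned 782 bp and 800 bp.

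Complex I, the NADH dehydrogenase at the entry of the respiratory chain, had peaks in 4 of its 7 mitochondrial genes, MT-ND1, MT-ND4, MT-ND5 and MT-ND6. Together the 7 genes were covered over 29.0% of their length by untreated even peaks and 35.9% by untreated odd peaks, against 18.7% and 15.1% after RNase. All 37 genes together were covered over 15.1% (even) and 24.6% (odd) without RNase, and over 7.74% (even) and 8.65% (odd) after RNase. Of the 37, 14 were touched in at least 1 list. MT-ND2, MT-ND3 and MT-ND4L had no peak in any list.

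MT-ND4, which encodes a proton-pumping membrane subunit, was the gene with the most sequence shared by all 4 lists, 412 of 1378 bp. Peaks covered 656 bp of it in the untreated even list, 628 bp in the untreated odd list, 512 bp in the RNase-treated even list and 441 bp in the RNase-treated odd list. Its first locus held the highest fold of a mitochondrial peak in both untreated lists and in the RNase-treated even list. There the untreated even peak at 11113 to 11491 had a fold of 4.79 and the untreated odd peak at 11157 to 11487 a fold of 9.43. After RNase the even peak at 11123 to 11482 had a fold of 3.20 and the odd peak at 11193 to 11494 a fold of 3.19. The summits of the even peaks, at 11284 and 11289, were 5 bp apart, and those of the odd peaks, at 11337 and 11349, were 12 bp apart. Between the probe sets they lay 53 bp apart without and 60 bp apart with RNase, so the position followed the probe set more closely than the RNase state at this locus.

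The last locus of MT-ND4 reached its 3′ end and had peaks in all 4 lists, with all summits between 12013 and 12024. The folds were 3.82 (even, 11854 to 12130) and 6.09 (odd, 11981 to 12217) without RNase, and 2.68 (even, 11966 to 12117) and 2.81 (odd, 11996 to 12134) with RNase. The untreated odd peak ran past MT-ND4 over MT-TH and into MT-TS2, the tRNA genes for histidine and a serine, which no other list touched. Between these loci the untreated odd list had a peak at 11695 to 11834 (fold 5.12) that no other list had.

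MT-ND1, a membrane subunit that helps to form the quinone-binding site, held the longest stretch that both probe sets covered without RNase and no list covered with RNase. It was 253 bp long, from 3356 to 3608. The untreated even peak lay at 3356 to 3711 (fold 3.25, −log10 p-value 49.3) and the untreated odd peak at 3178 to 3608 (fold 3.59, −log10 p-value 21.7), with summits at 3518 and 3492, which are 26 bp apart. The nearest RNase-treated peak of the same set was 2895 bp from the even peak and 186 bp from the odd peak. Of the 13 loci, only this had peaks in both untreated lists and in neither RNase-treated list. A second peak in MT-ND1 belonged to the odd set alone, at 3788 to 4004 (fold 5.0) without RNase and 3794 to 4003 (fold 2.58) with RNase.

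MT-ND5, another proton-pumping subunit, had peaks in all 4 lists but no base covered by all of them. Of its 1812 bp, peaks covered 422 bp (even) and 786 bp (odd) without RNase, and 277 bp (even) and 306 bp (odd) with RNase. Near its 5′ end only the odd lists had a peak, at 12427 to 12809 (fold 6.36) without and 12430 to 12735 (fold 3.0) with RNase. Further along, the even list had a peak at 13564 to 13985 (fold 3.39), with an RNase-treated counterpart at 13628 to 13904 (fold 1.56, the lowest fold of that list). The untreated odd peak at 13645 to 14047 (fold 4.23) overlapped them and had no odd counterpart after RNase. A stretch of 81 bp there, from 13905 to 13985, was covered by both sets without RNase only.

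MT-ND6, the only protein gene read from the light strand, was covered in 3 lists. Peaks covered 406 of its 525 bp in the untreated even list, 348 bp in the untreated odd list, 396 bp in the RNase-treated even list and none in the RNase-treated odd list. The even peak at 14268 to 14805 (fold 4.69) had an RNase-treated counterpart at 14278 to 14676 (fold 2.80), and the odd peak at 14275 to 14495 (fold 3.95) had none. The summits of these 3 peaks, at 14377, 14373 and 14381, lay within 8 bp of each other. The light strand encodes 9 genes, MT-ND6 and 8 tRNA genes, and they were covered over 48.4% (even) and 45.1% (odd) of their length without RNase. After RNase it was 37.1% (even) and none (odd), and the 28 heavy-strand genes had 12.6%, 23.1%, 5.52% and 9.3% in the same order. Most of the light-strand coverage is MT-ND6.

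MT-CYB, which encodes cytochrome b of complex III, differed most between the probe sets among the protein genes without RNase. Untreated odd peaks covered 965 of its 1141 bp (84.6%) and untreated even peaks 59 bp (5.17%), and after RNase the odd list covered 372 bp and the even list none. The odd peaks lay at 14547 to 15261 (fold 7.22) without RNase and 14765 to 15136 (fold 3.06) with RNase, with summits 177 bp apart. The end of the gene was covered by the untreated odd peak that begins at 15438 and runs on through the control region. That peak was 1134 bp wide, and only 5 peaks on chromosomes 1 to 22 and X in the same list were as wide.

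Of the 22 tRNA genes, 7 were touched in at least 1 list and none in all 4. Of all 37 genes it was 14 and 2. Without RNase the tRNA genes were covered over 10.3% (even) and 23.8% (odd) of their length, and all genes over 15.1% and 24.6%. After RNase it was 0.199% (even) and none (odd), and 7.74% and 8.65% for all genes. Untreated odd peaks touched 6 tRNA genes (MT-TL1, MT-TH, MT-TS2, MT-TE, MT-TT and MT-TP) and untreated even peaks 3 (MT-TF, MT-TE and MT-TP). RNase-treated peaks touched only MT-TE, the tRNA gene for glutamate, by 3 of its 69 bp in the even list. MT-TE was covered whole in both untreated lists, and 66 bp of it lay in the stretch from 14677 to 14764 that only the untreated lists covered. MT-TP, the tRNA gene for proline beside the control region, was covered over 46 of 68 bp (even) and over its full length (odd) without RNase, and by neither RNase-treated list. MT-TL1, MT-TH and MT-TT were covered whole by untreated odd peaks and by no other list.

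The rRNA genes, which give the RNAs of the mitochondrial ribosome, had few peaks and only without RNase. MT-RNR1 had none. MT-RNR2 was covered over 141 of 1559 bp by an even peak at 2048 to 2188 (fold 3.88). In the odd list 175 bp were covered, by a peak at 2689 to 2811 (fold 2.63) and by the start of the peak at 3178 to 3608. The sets shared no base of MT-RNR2, so its presence in both untreated lists is not a shared position.

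Cytochrome c oxidase (complex IV) and ATP synthase (complex V) were almost free of peaks. MT-CO3 had 1 peak in 1 list, at 9431 to 9556 in the untreated even list (fold 3.16). MT-CO1, MT-CO2, MT-ATP6 and MT-ATP8 had none in any list. The longest stretch without a peak in any list was 5426 bp, from 4005 to 9430, and it held 16 genes that were never covered, MT-ND2, MT-CO1, MT-CO2, MT-ATP8, MT-ATP6 and the tRNA genes MT-TI, MT-TQ, MT-TM, MT-TW, MT-TA, MT-TN, MT-TC, MT-TY, MT-TS1, MT-TD and MT-TK. The start of light-strand replication lies among these tRNA genes. The other genes without a peak were MT-RNR1, MT-TV, MT-TG, MT-ND3, MT-TR, MT-ND4L and MT-TL2.

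**Figure D2:**
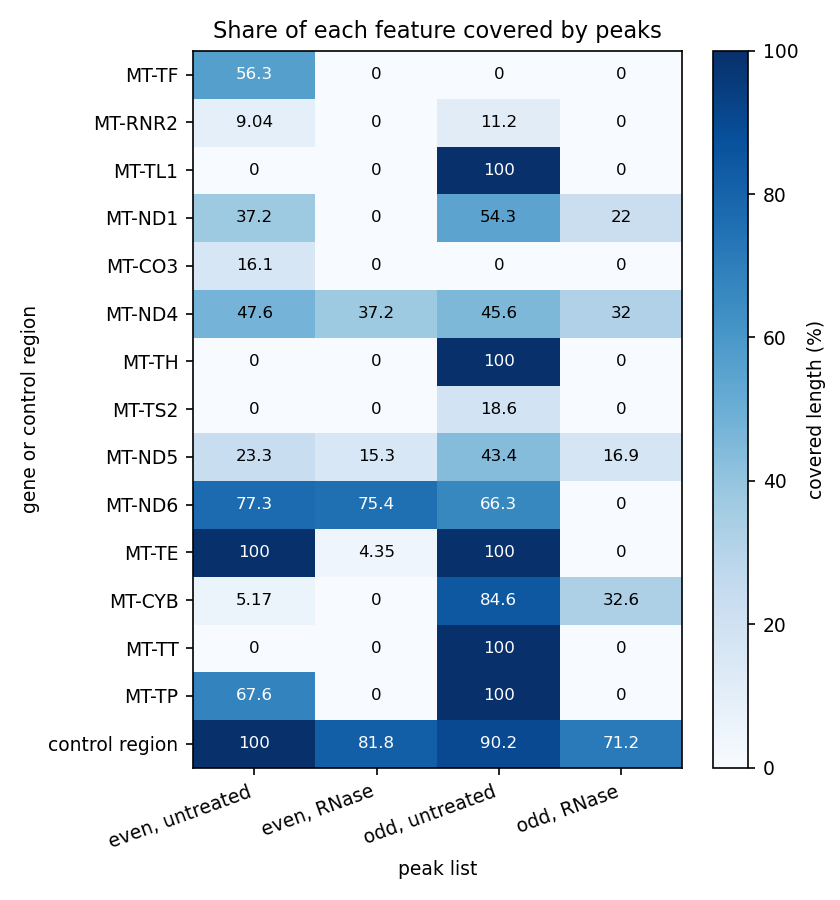
Share of each gene and of the control region that peaks covered, in percent, for the 14 genes touched in at least 1 list, in the 4 lists. The control region, MT-ND4 and MT-ND5 have values above 0 in each column, and the tRNA genes have values almost only in the untreated columns.

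The next comparison was of what RNase left. Of the 22 untreated mitochondrial peaks, 9 overlapped no RNase-treated peak of their probe set, whereas each of the 14 RNase-treated peaks had an untreated counterpart. In the even set, 3 of 9 untreated peaks (33.3%, Wilson 95% interval 12.1 to 64.6) lacked a counterpart, and 19.1% of peaks on chromosomes 1 to 22 and X did. In the odd set it was 6 of 13 (46.2%, 23.2 to 70.9), and 8.41% of the nuclear peaks. In reverse, 0 of 7 RNase-treated peaks lacked an untreated counterpart in each set, which allows a share of up to 42.9%, and the nuclear shares were 26.5% (even) and 44.8% (odd). Over all peaks, the nuclear even shares thus fell inside the mitochondrial intervals in both directions. The nuclear odd share without RNase fell below its mitochondrial interval. The reverse odd share was 0, and its limit of 42.9% lay just below the nuclear 44.8%. For a count of 0 the limit is 3 counts of the total, here and below, and not a Wilson interval. With the 7 strongest peaks of each list, only 1 untreated peak in each set and 1 RNase-treated odd peak lacked a counterpart. Intervals and limits cover counting error only, and neighbouring peaks are not independent.

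The nuclear shares depended on the strength of the peaks, so they were also taken over stronger peaks, with limits chosen after the data were seen. With a −log10 p-value of at least 20, 2 of 8 untreated even peaks on chrM (25.0%, Wilson 95% interval 7.15 to 59.1) lacked a counterpart, against 5.65% of the nuclear peaks. In the odd set it was 2 of 9 (22.2%, 6.32 to 54.7), against 0.411%. These were the even peaks in MT-RNR2 and MT-ND1 and the odd peaks over MT-ND1 and in MT-ND5. At this limit the even interval, too, lay above its nuclear share, which it did not over all peaks. Its low end of 7.15 was close to the nuclear 5.65%. The even peak in MT-RNR2 passed the limit narrowly, with a −log10 p-value of 20.1, so the even result depends on where the limit was set. With a limit of 10 the even number was 3 of 9 (33.3%, 12.1 to 64.6), which spans the nuclear 14.3%. The odd number was 4 of 11 (36.4%, 15.2 to 64.6), above the nuclear 4.35%. In reverse, no RNase-treated peak lacked an untreated counterpart at either limit. At 20 this was 0 of 5 in each set, which allows a share of up to 60%, against 5.11% (even) and 10.8% (odd) of the nuclear peaks. At 10 it was 0 of 7, against 19.3% and 32.2%. These limits act on the p-value alone, and fold enrichment was not matched. All 36 mitochondrial peaks had a fold below the 5th percentile of nuclear peaks in the same range of p-values. The mitochondrial and nuclear shares therefore come from peaks of unlike enrichment.

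**Figure D3:**
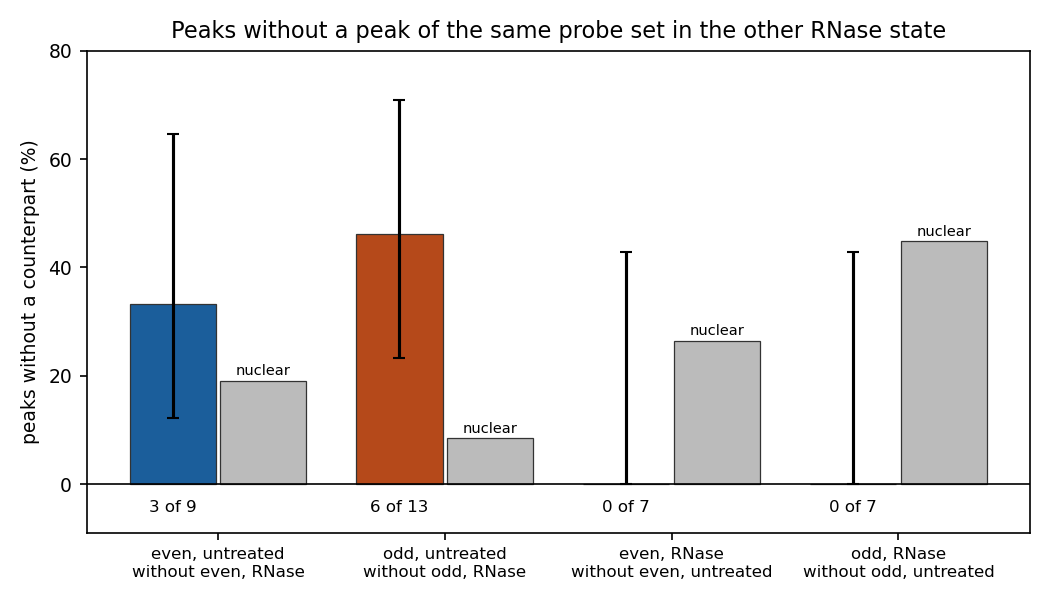
Share of peaks, in percent, without an overlapping peak of the same probe set in the other RNase state. Coloured bars are mitochondrial peaks with the Wilson 95% interval (for 0 of 7, the limit of 42.9%), and grey bars are peaks on chromosomes 1 to 22 and X. Untreated mitochondrial bars stand at 33.3% and 46.2%, and both RNase-treated bars at 0.

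The intervals that were found in both RNase states were longer without RNase. The overlapping peaks of the same set formed 14 pairs, 7 in each set, where the even peak at 1 to 616 counts in 2 pairs. Peaks that meet at the ends of the linear sequence count in separate pairs. The untreated peak was the wider in all 14, against 30.6% of the nuclear pairs in the even set and 18.2% in the odd set. The difference in width ran from 7 bp, in the odd peaks of MT-ND1, to 605 bp, in the odd peaks at the end of the sequence. The summits kept their places more than the edges did, as 10 of the 14 pairs had summits within 20 bp. Almost all sequence covered after RNase was also covered without it in the same set, 100% of 2107 bp in the even set and 99.7% of 2129 bp in the odd set. In reverse, 61.1% of the untreated even and 44.2% of the untreated odd length was covered after RNase. Both the width of a called peak and its presence depend on sequencing depth and on the background the caller used, and their part in this result was not tested.

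Peaks of the 2 probe sets overlapped in larger shares on chrM than in the nucleus. Of the untreated peaks, 7 of 9 even peaks (77.8%, 45.3 to 93.7) overlapped an odd peak and 9 of 13 odd peaks (69.2%, 42.4 to 87.3) an even peak, against 1.23% and 3.78% of the nuclear peaks. After RNase it was 4 of 7 in each direction (57.1%, 25.0 to 84.2), against 1.61% and 3.28%. Peaks covered between 12.7% and 29.0% of chrM but between 0.246% and 0.909% of the nuclear chromosomes, up to their last peak, so overlaps without any relation are also more frequent on chrM, and their part was not tested. By length, the untreated lists shared 2615 bp, which is 75.8% of the even and 54.5% of the odd length. The RNase-treated lists shared 1185 bp, which is 56.2% and 55.7%, and both untreated lists covered each of these bases too. The 4 lists thus had 1185 bp in common, in the control region (773 bp) and MT-ND4 (412 bp).

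The sequence that both sets covered without RNase and neither covered with RNase came to 605 bp (3.65% of chrM) in 7 stretches, and no base was covered by both sets with RNase only. Besides the 253 bp in MT-ND1, the stretches of at least 50 bp were 14677 to 14764 (88 bp, MT-TE and MT-CYB), 13905 to 13985 (81 bp, MT-ND5), 462 to 532 (71 bp, control region) and 15978 to 16042 (65 bp, MT-TP and control region). These 4 each bordered on sequence that a list covered after RNase, so they are edges of shared loci. Only the stretch in MT-ND1 had no peak of either RNase-treated list at its locus. The total ranged from 247 to 1248 bp under the other settings run. With the 7 strongest peaks of each list the stretch in MT-ND1 was lost, since its untreated odd peak was not among them, and 278 bp were left elsewhere.

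**Figure D4:**
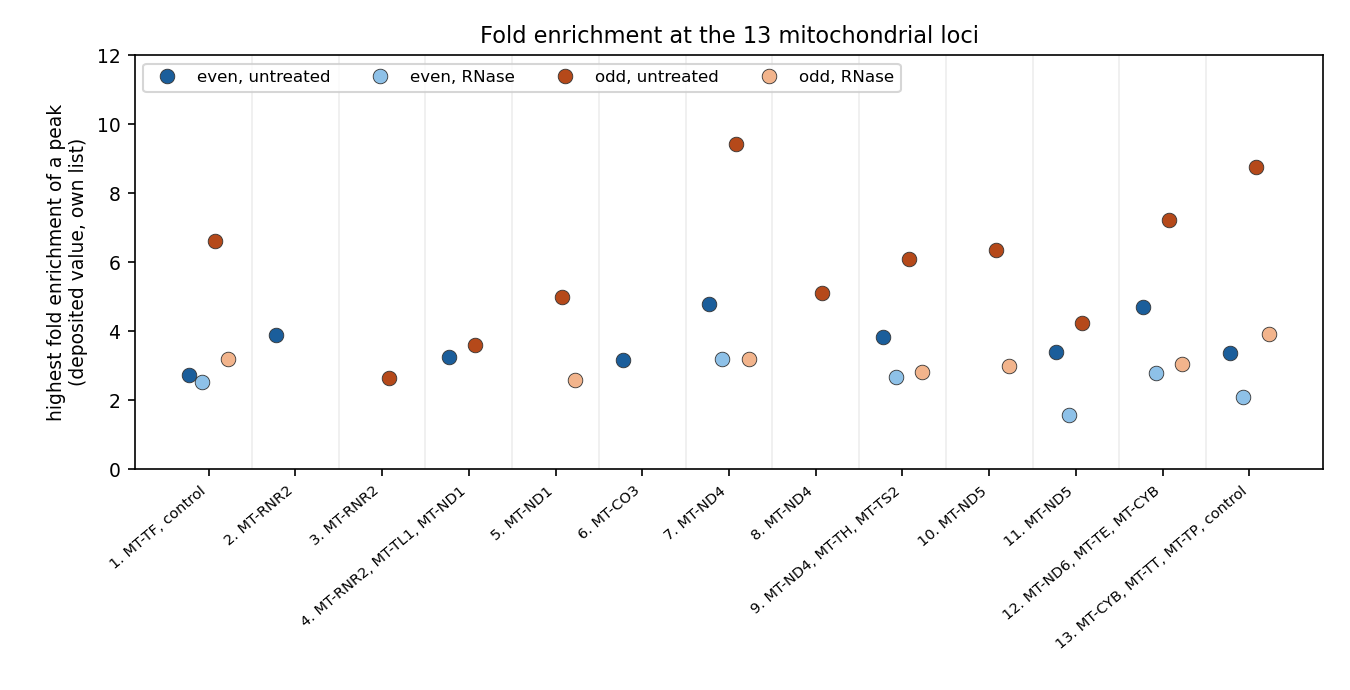
Highest deposited fold enrichment of a peak at each of the 13 loci, in the order of the sequence, for the 4 lists. A missing point means no peak in that list. Locus 4, over MT-ND1, has points for both untreated lists (3.25 and 3.59) and none after RNase, and the untreated odd list reaches its highest values at loci 7 (9.43) and 13 (8.77).

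Mitochondrial peaks had low folds for their p-values. The peak with the lowest fold of the whole list was on chrM in each of the 4 lists, and no nuclear peak lay below it. The lowest fold was 2.74 in the untreated even, 2.18 in the untreated odd, 1.56 in the RNase-treated even and 2.58 in the RNase-treated odd list. Of the 10 lowest folds, mitochondrial peaks held 5, 3, 6 and 6 in that order. The median fold on chrM was 3.39, 5.12, 2.53 and 3.06, and the nuclear medians were 10.9, 10.2, 11.8 and 11. The median −log10 p-values on chrM were 49.3, 25.1, 46.3 and 37.1 against nuclear medians of 20, 19, 23.7 and 19.4. Single peaks ranged widely, and the untreated odd peaks with the lowest folds were also weak by p-value. Only 0.38% of that list had a weaker p-value than the peak at 413 to 532 (fold 2.18), and 5.7% than the peak at 2689 to 2811 (fold 2.63). In the other lists at least 30.1% of the peaks were weaker than any mitochondrial peak. All 36 peaks had a fold below the 5th percentile of nuclear peaks in the same range of p-values. The untreated odd list stood apart from the other 3, as its strongest mitochondrial fold of 9.43 exceeded the folds of 45.9% of its list. The strongest folds of the other lists exceeded those of 1.67% (untreated even), 0.0172% (RNase-treated even) and 0.435% (RNase-treated odd) of their lists.

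**Figure D5:**
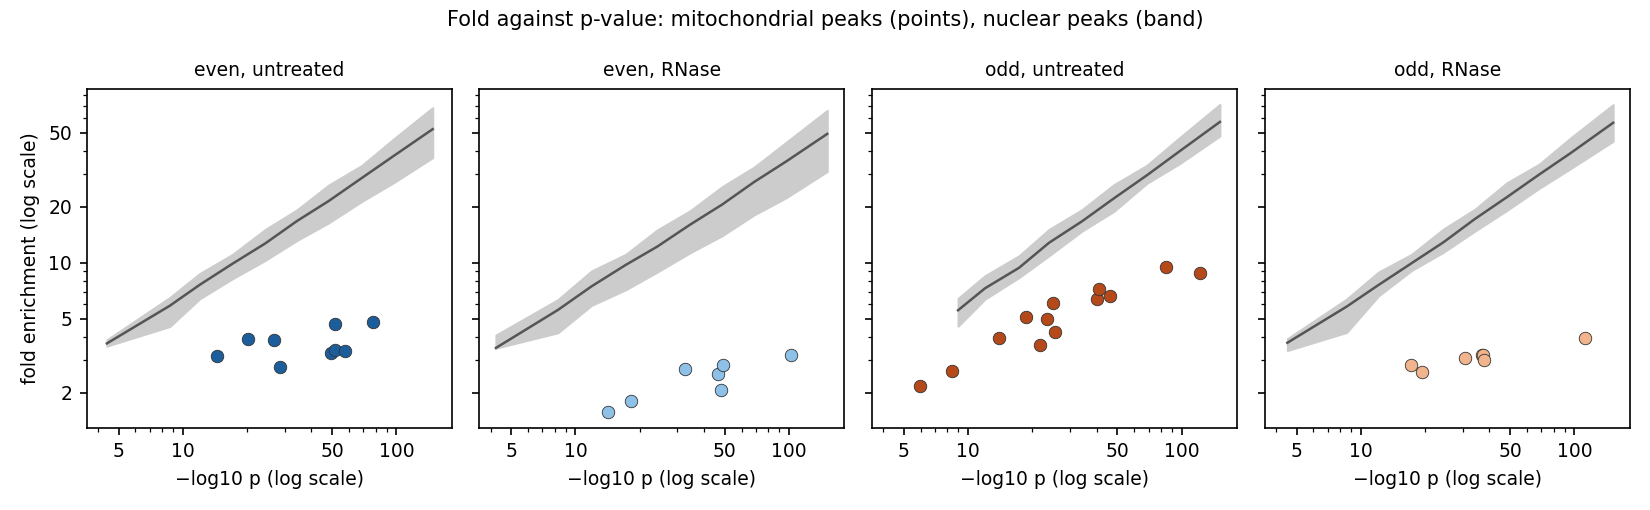
Deposited fold enrichment against −log10 p-value, both on log axes, with 1 panel per list. Points are mitochondrial peaks, the line is the median of nuclear peaks in ranges of p-value and the band spans their 5th to 95th percentile. All 36 points have a fold below the 5th percentile of their range. In the untreated odd panel, the points at −log10 p-values of 5.94 and 8.4 lie to the left of where the band begins.

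Mitochondrial peaks were also wide, with medians of 379 bp and 331 bp in the untreated even and odd lists and 280 bp and 302 bp after RNase. The nuclear medians were 186, 171, 192 and 173 bp in that order. Long pieces of mitochondrial DNA have been copied into the nuclear genome, the best known near the start of chromosome 1, where reads of mitochondrial origin can align as well. No list had a peak in a 20 kb window around that copy, whose place in hg19 was taken from general knowledge. The earliest peak on chromosome 1 in any list began at 760939, beyond the window. The lack of peaks there is thus not particular to the copy and cannot show how its reads were placed. How reads that align to both places were treated is not given in the sources used here.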

How the data were processed

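Bowtie, MACS2 and hg19 are named per the submitters' processing notes. Their versions, thresholds, control library and treatment of reads with several alignments were not given in the sources used here. Peak names show that the authors called each library on its own. The lists follow the narrowPeak layout without a header. The authors deposited a score, a fold enrichment (a linear ratio), a −log10 p-value and a −log10 q-value per peak, and the lowest −log10 q-value is 2.01. All 4 serve within their own list only.

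Intervals were merged per list and compared base by base with pandas 2.3.3, numpy 2.4.6, scipy 1.17.1 and matplotlib 3.10.9 under Python 3.11.15. An overlap is 1 bp or more in common. Nuclear peaks are those on chromosomes 1 to 22 and X. The interval counting was tested on simulated intervals. All 37 genes were found in the RefSeq gene table. Stretches of at least 50 bp were named, as were the peak of highest fold per list and genes without a peak. The mitochondrial genes and the comparisons were chosen with earlier results of these data known. Alternatives were stricter thresholds, summit windows, equal numbers of peaks, other overlaps, moved gene positions and ranking by fold. No sequence of this chrM was used here.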

Additional observations from a re-analysis of the deposited data

How the results depend on the processing

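Of 96 recomputed values, 71 stayed within 1.5 times of the reported value. With 100 bp on either side of each summit, coverage was 1809 bp (untreated even), 2613 bp (untreated odd) and 1407 bp (RNase-treated odd), the sequence covered by both sets without RNase only was 247 bp, that with RNase only 6 bp, and 1 RNase-treated even peak lacked a counterpart. With a fold of at least 3, RNase-treated even coverage fell to 360 bp, 7 untreated even peaks lacked a counterpart, 12.7% of the untreated even length was shared with RNase, and the untreated-only sequence rose to 1248 bp. With 7 peaks in every list it was 278 bp, and 1 untreated peak in each set and 1 RNase-treated odd peak lacked a counterpart. With RNase-treated intervals widened by 100 bp it was 253 bp, the MT-ND1 stretch alone. Requiring that at least 50% of a gene was covered left 4, 1 and 0 genes in the untreated even, RNase-treated even and RNase-treated odd lists. Outside the control region, RNase-treated coverage was 1188 bp (even) and 1329 bp (odd), and with a −log10 p-value of at least 20, 2 untreated odd peaks lacked a counterpart (both added after the data were seen). By p-value the best ranks on chrM were 12335, 2565, 16863 and 7031 (untreated even, untreated odd, RNase-treated even, RNase-treated odd), and by fold 103922, 18776, 116165 and 57235. The cause was not tested. Read depth is unknown, which limits any statement on absence. No paired test over replicates was possible because each group had 1 library, and the labels give no replicate numbers. Untreated and RNase-treated lists were compared within each probe set, as 2 separate descriptions without a test.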
